A study of Mus musculus with 27 samples.

Results

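Mouse cells driven towards the Sertoli cell by forced *Nr5a1* and *Dmrt1* were compared with the gonadal progenitor-like cells they were made from, 3 libraries of bulk RNA-seq against 3, out of 27 libraries in the series. The members were chosen by title: the libraries titled iSC_2TF, replicates 1 to 3, called induced Sertoli-like cells (iSLC) here, and those titled IM3, replicates 1 to 3. Both groups came from clone 7 of XY embryonic stem cells of the genotype Tesco-CFP; R26-rtTA on an F1 background of C57BL/6 and CBA. TESCO-CFP is a fluorescent reporter driven by an enhancer of *Sox9*, and R26-rtTA is the doxycycline-dependent activator expressed from the *Rosa26* locus. The IM3 cells were intermediate mesoderm-like cells kept in bFGF (5 ng/ml), BMP (20 ng/ml) and retinoic acid (RA, 100 nM) after an epiblast-like and an early mesoderm step. The iSLC were IM3 cells infected with lentiviruses for *Nr5a1* and *Dmrt1*, given doxycycline, moved to a Sertoli medium with EGF, FSH, FGF9, prostaglandin D2, testosterone and Activin A, and sorted for CFP. The comparison asks what changed in expression between the progenitor-like cells and the sorted product.

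Several things differ between the groups at once. Infection, doxycycline, the forced factors, medium, days in culture and the sort cannot be told apart, since no IM3 library was sorted or given empty virus among those analysed. IM3 and iSLC libraries also differed in their trend with GC content, given below. All libraries came from 1 clone. The labels do not say whether replicates were separate cultures, so p-values measure the spread between these libraries, which may be technical. Genes on X and Y entered the fit and the adjustment and were left out of all counts and names. *Agtr2*, one of the markers of the sorted cells, is X-linked, and its value is therefore not given.

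Sertoli cells are the supporting cells of the testis cords. They arise from the coelomic epithelium over the intermediate mesoderm, in the region called the genital ridge, and enclose the germ cells, while the androgen-making Leydig cells lie between the cords. NR5A1 (SF1) is a nuclear receptor needed for the gonad and the adrenal gland, acts on *Sox9* in Sertoli cells and drives the genes of steroid synthesis in steroid-making cells. DMRT1 is a DNA-binding factor that keeps Sertoli cells from taking on the fate of granulosa cells, their ovarian counterparts.

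Total expected counts were 39365494 to 55640100 in IM3 and 62749412 to 74311935 in iSLC. Within the libraries, genes rich in G and C lay 0.09 to 0.49 log2 units below genes poor in them, relative to the 27-library mean, in IM3 and 0.52 to 0.65 above in iSLC, and fold changes correlated weakly with GC content across genes (Spearman's rho 0.21 over 13261 genes, which are not independent). With an offset for this trend 2400 genes were called higher and 1826 lower. Calls under it were followed gene by gene for 315 genes, and where one of these described here lost its call, that is said. For further members named for their roles, calls under the offset were not followed. The lack of a remark beside them does not mean that the call held. As sums over each list, markers of blood, vessel, endoderm and immune cells were lower in iSLC, and the neural sum was higher through 1 gene. Summed TPM (a level per transcript length, scaled to the same sum in every library) was 124 to 197 in IM3 and 7.38 to 8.06 in iSLC for 16 red blood cell genes. It was 207 to 244 and 94.7 to 105 for 20 endothelial genes, and 434 to 506 and 12.9 to 20.3 for 10 endoderm genes. For 10 immune cell genes it was 8.70 to 10.1 and 6.15 to 7.28, and for 12 neural genes 22.9 to 26.4 and 57.3 to 66.2. The sums include members with too few reads to be tested. The rise of the neural sum was in *Map2*, at 1.18, 1.28 and 1.12 TPM in IM3 and 51.4, 45.3 and 44.1 TPM in iSLC. In bulk RNA, fewer cells of a type and less RNA per cell cannot be told apart.

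The forced factors marked the labels. *Nr5a1* was at 0.08, 0.05 and 0.14 TPM in IM3 and 100.3, 94 and 87.2 TPM in iSLC. *Dmrt1* was at 0.36, 0.65 and 0.34 TPM in IM3 and 219, 228 and 192 TPM in iSLC. The groups overlapped in neither gene, and reads of the viral cDNA cannot be separated here from those of the cells' own genes. *Col6a6*, a collagen VI chain given as a marker of the sorted cells, was at 0.01, 0.03 and 0.04 TPM in IM3 and 24.1, 22 and 25.3 TPM in iSLC (log2 fold change 10.05 ± 0.23, adjusted p = 5.20e-23, where the error here and below is the SE of the log2 fold change). It came with the definition of this comparison, made with earlier results of these data known, and the forced factors differ by design. These differences are therefore description and no test of the labels. Of the progenitor genes, *Wt1* and *Gata4*, transcription factors of the coelomic epithelium and early gonad, were detected in both groups. *Wt1* was at 143, 165 and 138 TPM in IM3 and 115, 115 and 118 TPM in iSLC. *Gata4* was at 341, 342 and 336 TPM in IM3 and 167, 153 and 163 TPM in iSLC. *Tcf21*, *Emx2* and *Lhx9*, which also mark the early gonad, are taken up with the genital ridge genes.

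Of 19957 genes tested on chromosomes 1 to 19 and the mitochondrial genome, 2574 were called higher and 1858 lower in iSLC, which is 12.9% and 9.31% of those tested. To be called, a gene had to reach 3 limits. These were 0.01 for the p of edgeR's quasi-likelihood test, adjusted by Benjamini-Hochberg across the 20839 genes in the fit, 2-fold for the change, and 100 normalized reads for the mean of IM3 or of iSLC. The 3 libraries of each group lay apart from those of the other in all 2574 genes called higher and in 1855 of 1858 called lower. Lying apart thus nearly always came with a call, and the share over all genes tested is not given here. Where a lack of overlap is stated below, it marks nothing particular to the genes named. The limit on p alone was passed by 13222 genes (66.3%), so the fold minimum did most of the selection. Changes over 8-fold were found in 506 genes called higher and 297 called lower. The median log2 fold change over all genes was 0.00, against which the medians of the gene lists are read. Fold changes are of normalized reads, while TPM also carry the estimated length of the gene, and for single genes, *Gata4* and *Cyp17a1* among them, the scales differ (over 12651 genes the median difference was -0.003 on the log2 scale). Of the genes named, *Csf1r*, *Fgfr3*, *Lef1*, *Tfap2a*, *Tgfb3* and *Cdkn1c* overlap genes on the other strand over 12.4% to 30.7% of their length, and the library kit does not mark strand, so their reads are uncertain to that extent.

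Most of the change led to levels found nowhere else in the series. In 2040 of the genes called higher (79.3%) all 3 iSLC libraries lay above all 24 libraries of the other 8 groups, against 20.7% of the genes tested. In 1249 of those called lower (67.2%) they lay below all 24, against 17.5%. The call itself asks for a 2-fold difference from IM3, which favours such a position. The shares over all genes tested are therefore not a like reference. The gene lists used here cover 48 functional groups, and the shares of their members called in each direction ranged widely around the shares over all genes.

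**Figure D1:**
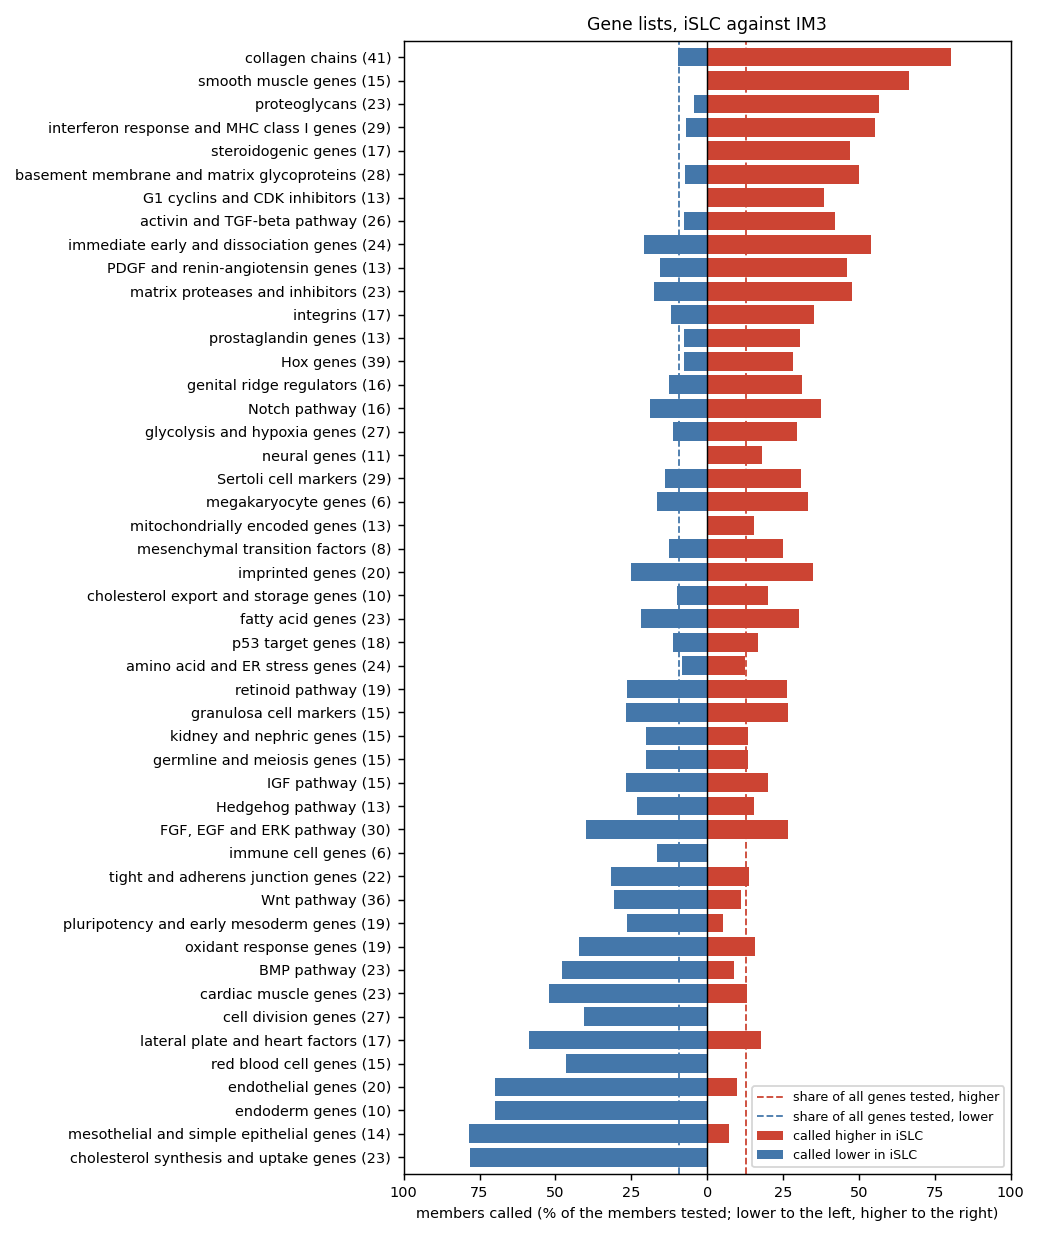
Share of tested members called higher (right, red) and lower (left, blue) in iSLC against IM3 for 48 gene lists, in percent, with the number of members tested in brackets. Dashed lines are the shares over all genes tested, 12.9% higher and 9.31% lower. Collagen chains (33 of 41 higher), smooth muscle genes (10 of 15 higher) and proteoglycans (13 of 23 higher) lie at the top. Cholesterol synthesis (18 of 23 lower) and epithelial genes (11 of 14 lower) lie at the bottom.

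Sertoli cell markers split. Of 29 tested, 9 rose and 4 fell, with a median log2 fold change of 0.79. The regulators *Sox9*, *Sox8*, *Wt1* and *Gata4* all lay under the fold minimum. *Sox9*, the transcription factor that commits the supporting cell to the male path, was at 40.1, 45.5 and 34.5 TPM in IM3 and 26.5, 24.6 and 23.3 TPM in iSLC, lower in every iSLC library though below the fold minimum (log2 fold change -0.68 ± 0.11, adjusted p = 2.88e-06), in cells sorted by a reporter of its enhancer. Its relative *Sox8* was at 3.42, 4.2 and 4.09 TPM in IM3 and 7.15, 6.23 and 7.42 TPM in iSLC, a difference of 0.79 on the log2 scale that did not pass the fold minimum. *Amh*, the hormone that removes the Müllerian ducts in male embryos, stayed under 1 TPM in all 6 libraries, at 0.32, 0.56 and 0.44 TPM in IM3 and 0.61, 0.47 and 0.60 TPM in iSLC, and its difference was not called (adjusted p = 0.227). *Fgf9*, the growth factor that sustains *Sox9*, was at 0.71, 1.01 and 0.60 TPM in IM3 and 1.22, 1.06 and 1.12 TPM in iSLC (adjusted p = 0.125).

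The products that rose include *Defb19*, a beta-defensin of the embryonic Sertoli cell, which had 1 read in the 3 IM3 libraries together and 612, 568 and 534 normalized reads in iSLC. The ratio was 908 (95% counting interval 163 to 35864). *Aldh1a1*, an enzyme that makes retinoic acid, was at 2.17, 1.59 and 2.6 TPM in IM3 and 114, 90.6 and 100.1 TPM in iSLC and rose 48.5-fold (log2 fold change 5.60 ± 0.18, adjusted p = 7.10e-20). The inhibin subunits rose as well. *Inhbb* was at 0.28, 0.36 and 0.30 TPM in IM3 and 6.36, 5.95 and 6.27 TPM in iSLC (log2 fold change 4.32 ± 0.15, adjusted p = 4.41e-19). *Inha* was at 3.13, 3.87 and 2.78 TPM in IM3 and 15.5, 13.5 and 14 TPM in iSLC (log2 fold change 2.17 ± 0.15, adjusted p = 8.98e-13), so both chains of inhibin B, the gonadal hormone that holds back FSH, were higher in each iSLC library than in each IM3 library. *Cldn11*, the claudin of the Sertoli cell barrier, was at 0.50, 0.42 and 0.53 TPM in IM3 and 6.78, 7.24 and 7.13 TPM in iSLC. *Mro*, a nucleolar protein found in male gonads early in their development, was at 0.56, 0.39 and 0.15 TPM in IM3 and 3.99, 4.1 and 3.63 TPM in iSLC. *Erbb4*, a receptor of the neuregulins, was at 0.35, 0.28 and 0.40 TPM in IM3 and 1.85, 1.73 and 1.84 TPM in iSLC. The groups overlapped in none of these 3. *Dhh*, the hedgehog ligand that Sertoli cells send to Leydig cells, was at 0.66, 0.72 and 0.72 TPM in IM3 and 2.38, 1.53 and 1.68 TPM in iSLC (log2 fold change 1.43 ± 0.24, adjusted p = 5.71e-06). *Dhh* overlaps *Rhebl1* over 12.4% of its length and a predicted gene on the other strand over 25.2%, so its reads are not certain to be its own. A further rise was in *Cbln4*, a secreted protein of the cerebellin family, at 0.22, 0.22 and 0.22 TPM in IM3 and 2.54, 2.09 and 2.11 TPM in iSLC. Of these, *Defb19*, *Cldn11* and *Dhh* were among the calls lost where a mean of 100 reads over all 27 libraries was asked for, which left 5 of the 9 rises in the list.

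The markers that fell began with *Krt18*, a keratin of simple epithelia, at 777, 684 and 714 TPM in IM3 and 16.9, 14.8 and 16.1 TPM in iSLC. *Col9a1*, a chain of collagen IX, was at 4.14, 4.87 and 3.31 TPM in IM3 and 0.16, 0.12 and 0.10 TPM in iSLC. *Cyp26b1*, the enzyme that clears retinoic acid in the fetal testis, was at 39, 40.5 and 39.7 TPM in IM3 and 3.34, 2.91 and 3.18 TPM in iSLC. *Fgfr2*, the receptor through which FGF9 acts on Sertoli cells, was at 55.1, 55.1 and 55.2 TPM in IM3 and 12.3, 13.9 and 13 TPM in iSLC. No library overlapped between groups in any of them. *Clu*, an abundant secreted chaperone of Sertoli cells, was already at 244, 212 and 208 TPM in IM3 and at 325, 275 and 294 TPM in iSLC, a difference of 0.45 on the log2 scale.

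Granulosa cell markers moved both ways: of 15 tested, 4 rose and 4 fell, with a median log2 fold change of 0.12. *Foxl2*, the factor that maintains the granulosa fate, stayed under 1 TPM, at 0.30, 0.21 and 0.12 TPM in IM3 and 0.76, 0.93 and 0.37 TPM in iSLC, and had too few reads to be called. *Esr2*, an estrogen receptor of granulosa cells, rose to 2.1, 2.05 and 1.91 TPM from 0.53, 0.51 and 0.63 TPM (log2 fold change 1.91 ± 0.21, adjusted p = 6.30e-09). It and 1 other member were not called under the minimum of 100 reads over all 27 libraries, which left 2 rises in the list. *Fst*, the activin-binding protein follistatin, rose to 4.27, 3.35 and 3.26 TPM from 1.2, 0.83 and 1.42 TPM (log2 fold change 1.67 ± 0.17, adjusted p = 1.99e-09). *Wnt4*, the ovary-promoting Wnt ligand, was at 6.24, 6.46 and 4.63 TPM in IM3 and 12.5, 12.5 and 12.1 TPM in iSLC, close to the fold minimum (log2 fold change 1.11 ± 0.12, adjusted p = 2.56e-09), and its call was lost with the GC offset and without IM3 replicate 3, where the log2 fold change was 0.98. *Irx3* and *Irx5*, homeobox factors of granulosa cells, fell by 5.99-fold and 9.63-fold. *Rspo1*, which feeds Wnt signalling in the ovary, was at 7.38, 9.78 and 7.51 TPM in IM3 and 9.96, 8.6 and 7.81 TPM in iSLC and not called (adjusted p = 0.528).

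Steroidogenic genes rose without a fall among them. Of 17 tested, 8 rose and 0 fell, with a median log2 fold change of 1.78. *Cyp11a1*, the enzyme that cuts the side chain of cholesterol and begins steroid synthesis, was at 0.57, 0.40 and 0.45 TPM in IM3 and 41.6, 30.2 and 38.2 TPM in iSLC and rose 88-fold (log2 fold change 6.46 ± 0.20, adjusted p = 4.02e-20). *Star*, which brings cholesterol into the mitochondrion, was at 9.08, 8.48 and 7.4 TPM in IM3 and 34.2, 28.1 and 30.9 TPM in iSLC (log2 fold change 1.65 ± 0.08, adjusted p = 1.06e-16). The electron carriers that serve the mitochondrial enzymes rose with them, ferredoxin *Fdx1* to 61.3, 65.4 and 55.8 TPM from 17.6, 15.1 and 16 TPM and its reductase *Fdxr* to 61.7, 54.3 and 53.3 TPM from 16, 19.3 and 15.3 TPM. *Hsd3b1*, which converts pregnenolone to progesterone, was at 0.96, 0.72 and 1.02 TPM in IM3 and 6.35, 4.98 and 6.3 TPM in iSLC (log2 fold change 2.79 ± 0.26, adjusted p = 1.94e-10). Genes known best from the adrenal cortex also rose. *Mc2r*, the receptor for ACTH, was at 0.21, 0.19 and 0.19 TPM in IM3 and 11.2, 9.06 and 9.11 TPM in iSLC. *Cyp11b1*, which makes corticosterone, was at 0.03, 0.01 and 0.10 TPM in IM3 and 2.54, 2.21 and 2.82 TPM in iSLC. In all of these the 3 iSLC libraries lay above all 24 libraries of the other groups.

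Genes of the branch to androgens were low in both groups. *Cyp17a1*, needed for androgens, was at 0.97, 1 and 0.81 TPM in IM3 and 0.74, 0.88 and 0.80 TPM in iSLC (adjusted p = 0.285). *Hsd17b3*, which makes testosterone, had 1 read in IM3 and 105 in iSLC over the group, too few for a call, with a ratio of 51 (95% counting interval 8.95 to 2032). *Insl3*, a hormone of Leydig cells and in the same list, was at 1.37, 0.80 and 0.64 TPM in IM3 and 8.19, 6.41 and 6.33 TPM in iSLC (log2 fold change 2.88 ± 0.46, adjusted p = 3.91e-06). It shares 64.8% of its length with *Jak3* on the same strand, so its reads are uncertain, and without iSLC replicate 1 its log2 fold change of 2.75 was no longer called. *Scarb1*, the receptor that takes up cholesterol from HDL, was at 100.3, 104 and 95.4 TPM in IM3 and 82.8, 80.3 and 76.2 TPM in iSLC, a difference of -0.29 on the log2 scale. Under the minimum of 100 reads over all 27 libraries, 4 of the 8 rises remained.

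**Figure D2:**
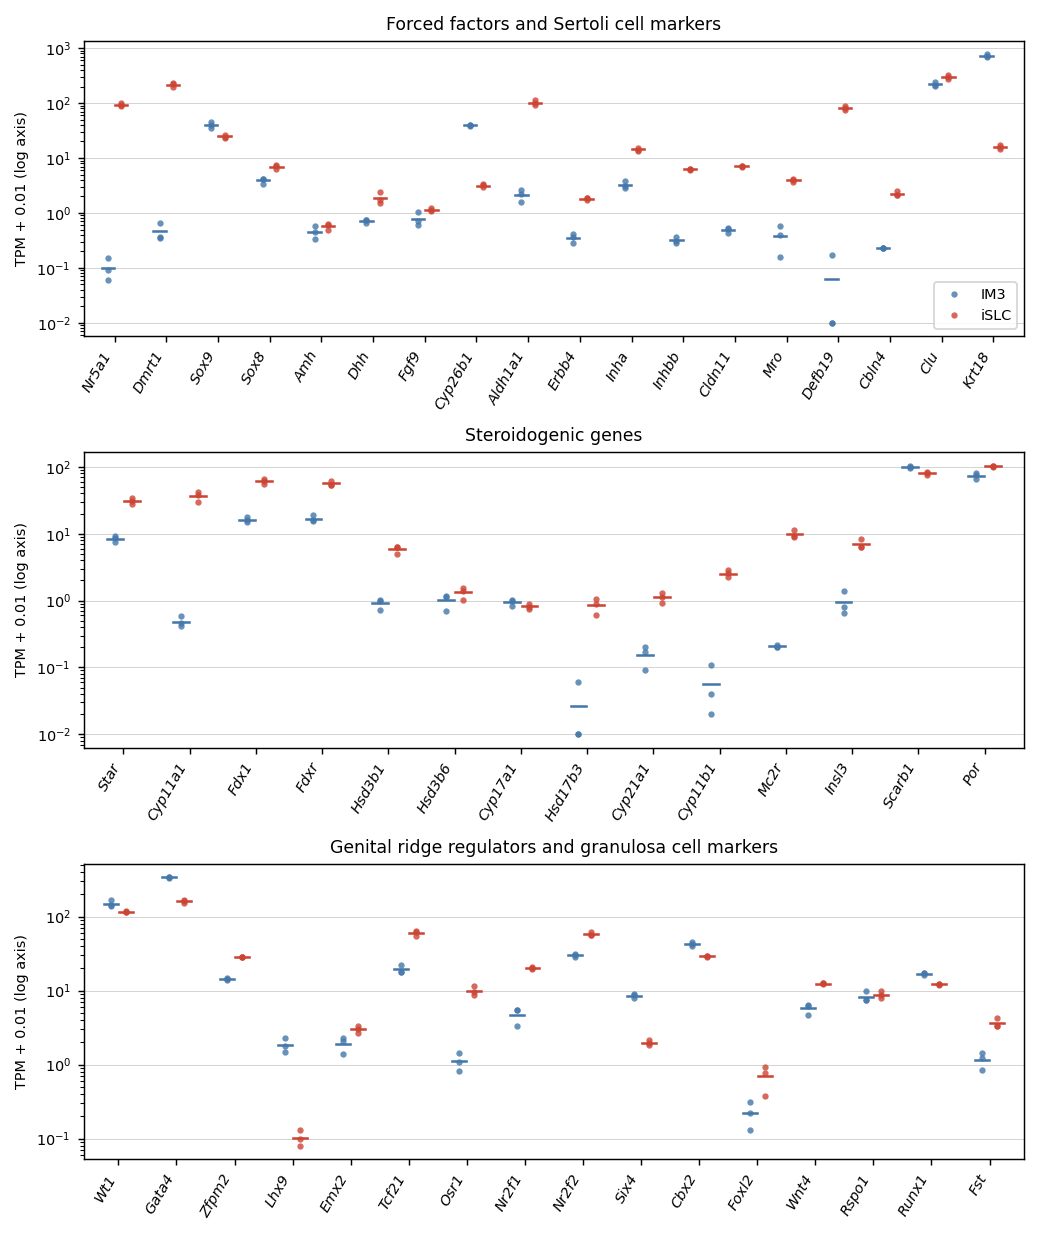
TPM (plus 0.01, log axis) in the 3 IM3 (blue) and 3 iSLC (red) libraries for the forced factors and Sertoli cell markers, steroidogenic genes, and genital ridge and granulosa genes; short lines are group means. *Cyp11a1*, *Mc2r* and *Defb19* separate widely, while *Sox9*, *Amh*, *Wt1* and *Rspo1* lie close in both groups.

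Genital ridge regulators moved both ways. Of 16 tested, 5 rose and 2 fell, with a median of 0.09. *Tcf21*, a factor of gonadal and kidney mesenchyme, was at 17.8, 22.1 and 17.9 TPM in IM3 and 62.8, 61.1 and 55.2 TPM in iSLC (log2 fold change 1.67 ± 0.16, adjusted p = 3.52e-10). *Osr1*, a factor of the intermediate mesoderm, was at 1.08, 1.44 and 0.80 TPM in IM3 and 8.56, 11.6 and 9.53 TPM in iSLC (log2 fold change 3.18 ± 0.18, adjusted p = 9.32e-15). *Nr2f1*, a nuclear receptor of mesenchyme, rose 3.52-fold. *Six4*, which takes part in early *Nr5a1* expression in the gonad, fell to 1.84, 1.95 and 2.13 TPM from 8.72, 7.89 and 8.89 TPM. *Lhx9*, a homeobox factor needed for the gonad to form, was at 1.75, 2.31 and 1.46 TPM in IM3 and 0.12, 0.09 and 0.07 TPM in iSLC and fell 23.4-fold (log2 fold change -4.55 ± 0.27, adjusted p = 1.70e-14). It was not called under the minimum over all 27 libraries, which left 1 fall in the list. *Zfpm2*, the cofactor of GATA4, stood at the fold minimum, at 14.2, 14.9 and 13.9 TPM in IM3 and 28.6, 28.3 and 28.5 TPM in iSLC. *Emx2*, another homeobox factor of the ridge, was at 2.31, 2.05 and 1.38 TPM in IM3 and 3.04, 2.7 and 3.34 TPM in iSLC, under the fold minimum (log2 fold change 0.91 ± 0.17, adjusted p = 2.65e-05).

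The letters known for the forced factors were looked for in promoters, as a description. A promoter here is the window of 300 bases from 250 before to 50 after a RefSeq start on GRCm38.p6, and 13074 of the genes tested had at least 1, with 16558 windows in all. The NR5A1 element, CAAGGTCA on either strand, stood in 27 of 2445 windows of genes called higher (1.10%), 13 of 1641 of genes called lower (0.792%) and 205 of all 16558 (1.24%). The DMRT1 core, ACATTGT on either strand, stood in 46 (1.88%), 23 (1.4%) and 269 (1.62%). The shares of the called genes thus lay near the share over all promoters. None of the 6 windows of 5 steroidogenic genes called higher and none of the 8 windows of 7 Sertoli markers called higher held either string. The NR5A1 letters stood in a window of *Cst8*, a cystatin of the male reproductive tract, which rose, and of *Col9a1*, which fell. The DMRT1 core stood in a window of *Hbb-y*, an embryonic globin, and of *Hk2*, a hexokinase, which both fell. Not all called genes named here were searched one by one, so others among them may also hold the letters. The windows of *Cst8* and *Col9a1* are shown as examples, with the letters of the element in capitals. That of *Cst8* is chr2:148798589-148798888, plus strand, and that of *Col9a1* chr1:24177360-24177659, plus strand, where the element reads on the other strand.
Cst8: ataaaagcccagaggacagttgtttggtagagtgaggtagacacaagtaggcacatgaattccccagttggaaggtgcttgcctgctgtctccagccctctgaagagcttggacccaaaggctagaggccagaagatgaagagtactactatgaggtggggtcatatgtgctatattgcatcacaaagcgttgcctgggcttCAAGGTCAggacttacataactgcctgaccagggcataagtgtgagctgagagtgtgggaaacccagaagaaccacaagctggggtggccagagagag
Col9a1: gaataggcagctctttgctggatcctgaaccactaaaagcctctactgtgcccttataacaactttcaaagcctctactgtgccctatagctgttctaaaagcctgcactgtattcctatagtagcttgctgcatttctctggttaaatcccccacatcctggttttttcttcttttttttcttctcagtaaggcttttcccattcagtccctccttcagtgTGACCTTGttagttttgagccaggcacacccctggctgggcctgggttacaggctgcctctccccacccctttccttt
The element began 48 bases before the start of *Cst8*, whose reads were at 0 in IM3, and 28 bases before that of *Col9a1*, which fell.

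Of the 12 largest rises among protein-coding genes, 6 were in genes with no read in IM3. *Cst8* was at 193, 208 and 188 normalized reads in iSLC, at least 104-fold higher, taking 3 counts over the group as the floor. *Chodl*, a membrane lectin, was at 206, 202 and 228, at least 112-fold higher. The predicted genes *5031410I06Rik*, *Gm21541* and *Gm21680*, members of multi-copy families between which reads may be shared, were at least 102-fold, 90.3-fold and 57.3-fold higher. *B430305J03Rik*, at least 281-fold higher, lies wholly on the other strand of *Rap2b*, from which its reads cannot be told apart. Its mean of 4.38 TPM in iSLC was not the highest of the series. It was 3.35 TPM in the epiblast-like step and 5.02, 3.39 and 3.30 TPM in the intermediate mesoderm media titled IM1, IM2 and IM5. In embryonic stem cells, early mesoderm, IM3 and the medium titled IM4 it was 0. Of the other 6, *Nr5a1*, *Col6a6* and *Defb19* are described above. *Aspn*, the leucine-rich proteoglycan asporin, was at 0.10, 0.06 and 0 TPM in IM3 and 48.4, 51.2 and 56 TPM in iSLC (log2 fold change 9.76 ± 0.27, adjusted p = 3.19e-21). *Abca8a*, a lipid transporter, had 2 reads in IM3 and a ratio of 625 (95% counting interval 173 to 5166). *Kcne4*, a subunit of potassium channels, had 1 and a ratio of 666 (119 to 26318).

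By level, other genes led. Among protein-coding genes, after the mitochondrial *mt-Atp8*, taken up below, the largest gains in TPM were in *Dlk1*, an imprinted membrane protein of fetal mesenchyme, at 2239, 2488 and 2076 TPM in IM3 and 6770, 6148 and 6703 TPM in iSLC. *Ptn*, the heparin-binding growth factor pleiotrophin, was at 224, 257 and 238 TPM in IM3 and 2863, 2997 and 3010 TPM in iSLC (log2 fold change 3.65 ± 0.13, adjusted p = 6.31e-19). *Mest*, an imprinted gene of mesoderm, was at 1110, 1029 and 1174 TPM in IM3 and 3183, 3210 and 3315 TPM in iSLC, with 23.1% of its length overlapping *Copg2* on the other strand. The last of these gains were in fibrillar collagens. *Col3a1* was at 215, 246 and 229.7 TPM in IM3 and 2324, 2189 and 2178 TPM in iSLC. *Col1a1* was at 716, 848 and 620.1 TPM in IM3 and 2466, 2482 and 2440 TPM in iSLC. In each, all iSLC libraries lay above all other 24.

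Most collagen genes rose. Of 41 chains tested, 33 rose and 4 fell, with a median log2 fold change of 3.06, and summed collagen TPM was 1672 to 2028 in IM3 and 10374 to 10720 in iSLC. Collagens are the triple-helical proteins of the matrix, in fibrils, in the sheets of basement membranes and in the beaded filaments of collagen VI. The fibril formers rose from a level already high: *Col1a1* 3.43-fold (log2 fold change 1.78 ± 0.11, adjusted p = 1.03e-13), *Col3a1* 10.5-fold (log2 fold change 3.40 ± 0.11, adjusted p = 1.44e-19), *Col1a2* 5.75-fold, *Col5a1* 4.9-fold and *Col5a2* 5.34-fold. All 6 chains of collagen VI rose. *Col6a1* was at 36.3, 37.5 and 32.2 TPM in IM3 and 714, 685 and 715 TPM in iSLC. *Col6a2* was at 12, 13.7 and 10.3 TPM in IM3 and 652, 619 and 648 TPM in iSLC. *Col6a3* was at 9.9, 8.65 and 5.98 TPM in IM3 and 342, 356 and 355 TPM in iSLC, and the order of these 3 chains of the common heterotrimer by TPM was the same in both groups. *Col6a5* and *Col6a4* stayed under 3 TPM.

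Basement membrane collagens followed. *Col4a1*, which with *Col4a2* forms the common network, was at 104, 97.5 and 87.1 TPM in IM3 and 938, 842 and 844 TPM in iSLC. *Col4a2* was at 70.6, 71.8 and 58.8 TPM in IM3 and 600.4, 532 and 533 TPM in iSLC. *Col4a3* and *Col4a4*, chains of specialised basement membranes, rose to 1.01, 1.02 and 1.15 and 2.79, 2.33 and 2.44 TPM from at most 0.03 TPM. *Col15a1*, of the zone around basement membranes, was at 1.21, 0.60 and 0.57 TPM in IM3 and 103, 109 and 99.3 TPM in iSLC (log2 fold change 7.41 ± 0.11, adjusted p = 1.34e-26). *Col18a1*, its close relative, went the other way, at 246, 249 and 226 TPM in IM3 and 63.2, 61.5 and 57.3 TPM in iSLC (log2 fold change -1.98 ± 0.07, adjusted p = 6.34e-19). So did the cartilage chains *Col9a1* and *Col2a1*, the latter at 2.39, 2.47 and 1.92 TPM in IM3 and 0.64, 0.83 and 0.69 TPM in iSLC. The fourth fall, in *Col22a1*, was lost with an offset for gene length.

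**Figure D3:**
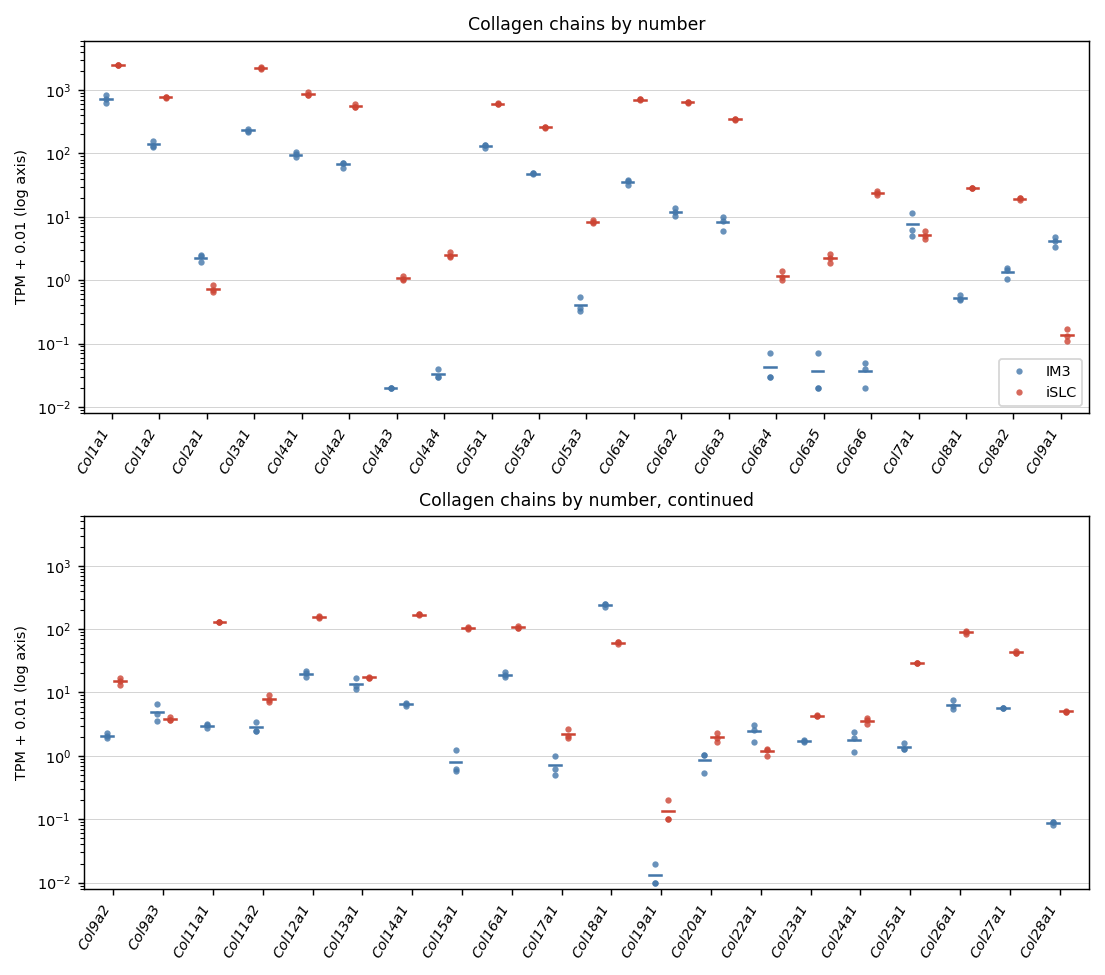
TPM (plus 0.01, log axis) of every tested collagen chain in the 3 IM3 (blue) and 3 iSLC (red) libraries, with group means as lines. In 33 of 41 chains the iSLC points lie higher and were called; *Col18a1*, *Col2a1*, *Col22a1* and *Col9a1* were called lower.

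Other matrix genes rose as well. Of 28 basement membrane and matrix glycoproteins, 14 rose and 2 fell (median 1.00). Elastic fibre genes were among the rises. *Eln*, elastin, was at 2.44, 2.68 and 2.1 TPM in IM3 and 57.2, 52.3 and 51.8 TPM in iSLC (log2 fold change 4.53 ± 0.15, adjusted p = 1.28e-19). *Fbln5*, which helps to assemble it, was at 1.87, 2.07 and 1.95 TPM in IM3 and 58.6, 61.2 and 59.8 TPM in iSLC. *Fbn1*, fibrillin, was at 34, 31.4 and 30 TPM in IM3 and 249.8, 252 and 245 TPM in iSLC. *Lama4*, the chain of mesenchymal and vascular laminins, rose 9.5-fold (log2 fold change 3.25 ± 0.07, adjusted p = 3.57e-23) and *Lama2* 6.28-fold. *Tnc*, tenascin C, rose to 358, 366 and 354 TPM from 43.8, 42.2 and 40.6 TPM. *Fn1*, fibronectin, was at 737, 726 and 666 TPM in IM3 and 993, 1052 and 971 TPM in iSLC, under the fold minimum. *Vtn*, vitronectin, had 2 reads in iSLC and was lower by a ratio of 438 (95% counting interval 120 to 3627).

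Proteoglycans rose in 13 of 23 and fell in 1 (median 1.97). Small leucine-rich members, which bind collagen fibrils, were among them. *Ogn*, *Lum* and *Fmod* rose 40.5-fold, 15.1-fold and 12.4-fold. *Dcn*, decorin, was at 17.3, 16.7 and 17.1 TPM in IM3 and 198, 212 and 214 TPM in iSLC, and the groups overlapped in none of these. *Hapln1*, the link protein of hyaluronan matrices, was the exception, at 49.9, 42.7 and 51.1 TPM in IM3 and 1.41, 1.4 and 1.17 TPM in iSLC (log2 fold change -5.16 ± 0.10, adjusted p = 4.94e-24).

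Matrix proteases and their inhibitors rose in 11 of 23 and fell in 4 (median 1.62). *Mmp14*, the membrane-bound protease that activates MMP2, was at 41.4, 38.1 and 32.3 TPM in IM3 and 429, 459.8 and 449 TPM in iSLC (log2 fold change 3.59 ± 0.08, adjusted p = 5.74e-23). *Mmp2* was at 190.2, 185 and 179 TPM in IM3 and 732, 750 and 746 TPM in iSLC. *Adamts2*, which trims procollagens, rose 10.9-fold and *Mmp23* 17-fold. *Mmp9*, a gelatinase, fell to 1.47, 1.65 and 1.26 TPM from 28.4, 24.8 and 29.3 TPM (log2 fold change -4.16 ± 0.17, adjusted p = 4.80e-18). *Plaur*, the urokinase receptor, fell 6.08-fold. Among 17 integrins 6 rose and 2 fell (median 0.22), with 4 falls under the GC offset. *Itga8*, the receptor chain for nephronectin, was at 5.68, 5.2 and 6.01 TPM in IM3 and 133, 141 and 134 TPM in iSLC (log2 fold change 4.64 ± 0.11, adjusted p = 1.27e-22). *Itga11*, a collagen receptor chain, rose 16.6-fold, and *Itgb5*, a vitronectin receptor chain, 5.91-fold. *Itga3*, of epithelial laminin receptors, fell 2.77-fold.

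Smooth muscle genes rose in 10 of 15 and fell in 0 (median 1.71). *Mylk*, the kinase that triggers contraction, was at 0.59, 0.57 and 0.61 TPM in IM3 and 40.6, 38.5 and 37.9 TPM in iSLC (log2 fold change 6.09 ± 0.13, adjusted p = 1.78e-23). *Myh11*, the smooth muscle myosin, was at 0.34, 0.23 and 0.19 TPM in IM3 and 12.3, 12.4 and 13 TPM in iSLC (log2 fold change 5.59 ± 0.15, adjusted p = 1.76e-21). *Actg2* and *Myl9*, of the contractile filaments, rose 24.2-fold and 8.57-fold. *Acta2*, smooth muscle actin, was at 983, 775 and 847 TPM in IM3 and 1659, 1638 and 1661 TPM in iSLC, just under the fold minimum (0.95 on the log2 scale), and *Tagln* had a log2 fold change of 0.96. *Des*, desmin, was at 69.7, 59.7 and 55.8 TPM in IM3 and 61.2, 62.7 and 62.5 TPM in iSLC (adjusted p = 0.712). Of 8 factors and products of the mesenchymal transition, 2 rose and 1 fell (median 0.58). *Zeb1*, a repressor of epithelial genes, rose to 95, 92.3 and 96 TPM from 32.6, 30.1 and 29.8 TPM (log2 fold change 1.64 ± 0.07, adjusted p = 1.61e-17). *Snai1*, another such repressor, was at 40.3, 44.8 and 35.4 TPM in IM3 and 99.5, 90.5 and 93.2 TPM in iSLC and lost its call with the GC offset. *Vim*, vimentin, was at 1703, 1554 and 1518 TPM in IM3 and 2512, 2411 and 2323 TPM in iSLC, under the fold minimum.

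Most epithelial genes fell. Of 14 mesothelial and simple epithelial genes, 11 fell and 1 rose, with a median log2 fold change of -2.71. *Krt8* and *Krt18*, the paired keratins of simple epithelia, fell together. *Krt8* was at 1094, 1050 and 1031 TPM in IM3 and 19.6, 16.1 and 18 TPM in iSLC (log2 fold change -5.86 ± 0.10, adjusted p = 3.76e-25). *Krt19* was at 448, 451 and 440.4 TPM in IM3 and 10.1, 8.96 and 8.09 TPM in iSLC (log2 fold change -5.62 ± 0.09, adjusted p = 1.06e-25). *Podxl*, the surface sialomucin of the coelomic lining and podocytes, was at 398, 383 and 381 TPM in IM3 and 23.1, 20.9 and 18.8 TPM in iSLC (log2 fold change -4.22 ± 0.10, adjusted p = 9.52e-23). *Upk3b* and *Lrrn4*, markers of the mesothelium, fell 7.03-fold and 6.11-fold, and *Bnc1*, a factor of the mesothelium and germ line, 9.09-fold. *Cdh1*, the epithelial cadherin, was at 17.4, 13.9 and 13 TPM in IM3 and 1.47, 1.62 and 1.9 TPM in iSLC. *Epcam* was at 10.6, 9.23 and 9.29 TPM in IM3 and 1.58, 1.6 and 1.71 TPM in iSLC. These are surface proteins of epithelial contacts. All iSLC libraries lay below all IM3 libraries in each, and for all of these except *Upk3b* and *Bnc1* below all 24 other libraries. *Gpm6a*, a neuronal membrane protein also made by the mesothelium, was the rise, at 0.72, 0.62 and 0.68 TPM in IM3 and 11.3, 11.2 and 9.73 TPM in iSLC.

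Of 22 tight and adherens junction genes, 7 fell and 3 rose (median -0.78). The claudins *Cldn4*, *Cldn6* and *Cldn7*, which seal epithelia, fell 8.5-fold, 17-fold and 11.5-fold. *Cldn5*, the claudin of blood vessels, was at 7.62, 7.77 and 7.22 TPM in IM3 and 0.02, 0.09 and 0.07 TPM in iSLC. Besides *Cldn11*, *Jam2*, a junction adhesion molecule, rose, at 0.63, 0.43 and 0.77 TPM in IM3 and 13.8, 12.3 and 13.9 TPM in iSLC. *Cdh11*, a cadherin of mesenchyme, was at 67.8, 71 and 74.5 TPM in IM3 and 193, 207 and 204 TPM in iSLC. *Cdh2*, the cadherin of mesenchymal and Sertoli cells, was at 102, 91.4 and 94.2 TPM in IM3 and 121, 129 and 128 TPM in iSLC, a difference of 0.47 on the log2 scale under the fold minimum.

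Many lateral plate and heart genes fell too. Of 17 transcription factors, 10 fell and 3 rose (median -1.37). *Hand1*, of the lateral plate and extraembryonic mesoderm, was at 102, 105 and 99.3 TPM in IM3 and 2.2, 1.76 and 1.88 TPM in iSLC (log2 fold change -5.67 ± 0.14, adjusted p = 1.40e-22). *Gata5*, of the cardiac and gut mesoderm, was at 30.6, 32.4 and 27.2 TPM in IM3 and 2.86, 2.2 and 2.61 TPM in iSLC (log2 fold change -3.54 ± 0.14, adjusted p = 7.45e-18). *Tbx5*, of the heart and forelimb, was at 23.7, 27.4 and 20.9 TPM in IM3 and 3.91, 3.9 and 4.1 TPM in iSLC. *Isl1*, *Foxf1* and *Irx4* fell 6.84-fold, 7.57-fold and 45.2-fold. *Tbx2* rose to 114, 109 and 110.3 TPM from 15.9, 16.4 and 12.5 TPM. *Prrx1*, a factor of limb and body wall mesenchyme, was at 6.53, 7.1 and 7.48 TPM in IM3 and 30.1, 31 and 30.9 TPM in iSLC, and *Mef2c* rose 2.43-fold. *Gata6* was at 135, 139.6 and 128 TPM in IM3 and 101, 107 and 98 TPM in iSLC, under the fold minimum. Of 23 genes of cardiac muscle, 12 fell and 3 rose (median -1.62). *Myl7*, the atrial myosin light chain, was at 191, 90.7 and 140.5 TPM in IM3 and 5, 7.33 and 5.19 TPM in iSLC (log2 fold change -4.51 ± 0.27, adjusted p = 2.71e-14). *Actc1*, cardiac actin, was at 166, 78.6 and 123 TPM in IM3 and 8.63, 10.4 and 8.99 TPM in iSLC. *Myl4* was at 120.3, 79.5 and 94.6 TPM in IM3 and 5.86, 7.37 and 6.09 TPM in iSLC. The IM3 libraries differed among themselves in these, with IM3 replicate 2 lowest, yet above all iSLC libraries. *Ankrd1*, a stretch-responsive nuclear protein, rose instead, at 9.75, 7.45 and 8.14 TPM in IM3 and 62.5, 58.1 and 62.9 TPM in iSLC. *Tnnt2*, cardiac troponin T, was at 85.2, 53.3 and 65 TPM in IM3 and 132, 127 and 131 TPM in iSLC, not called.

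Endothelial genes fell in 14 of 20 and rose in 2 (median -2.81). *Kdr*, the main VEGF receptor, was at 20.4, 17.6 and 18.6 TPM in IM3 and 0.72, 0.70 and 0.73 TPM in iSLC (log2 fold change -4.70 ± 0.09, adjusted p = 3.59e-24). *Tek*, the angiopoietin receptor, was at 28.9, 25.8 and 25.6 TPM in IM3 and 0.94, 0.59 and 0.56 TPM in iSLC. *Etv2*, the factor that starts the endothelial lineage, was at 8.25, 7.78 and 7.3 TPM in IM3 and 0.14, 0.03 and 0.13 TPM in iSLC. *Pecam1* and *Tie1*, surface proteins of the vessel lining, fell 26.5-fold and 124-fold. *Emcn*, endomucin, rose against the rest of the list, at 2.2, 2.12 and 2.68 TPM in IM3 and 23.9, 24.1 and 26.9 TPM in iSLC (log2 fold change 3.39 ± 0.15, adjusted p = 1.02e-16). *Egfl7*, a secreted vascular protein, kept the highest endothelial level in iSLC, at 96, 84.6 and 76.5 TPM in IM3 and 35.8, 31.4 and 34.2 TPM in iSLC.

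Blood genes held 6 of the 12 largest falls among protein-coding genes. Of 15 red blood cell genes, 7 fell and 0 rose (median -5.26). The embryonic beta-like globins *Hbb-bh1* and *Hbb-y* were at 543, 668 and 749.6 and 324, 373 and 401 normalized reads in IM3 and had no read in iSLC, at least 1018-fold and 574-fold lower. The adult globins *Hbb-bs* and *Hba-a2*, whose reads may be shared with their near-identical copies, were at least 343-fold and 189-fold lower. Their levels did not follow a blood lineage through the series. Means were 23.5 and 11.2 TPM in embryonic stem cells, 0 in the epiblast-like step, 28.6 and 15.1 TPM in early mesoderm and 16.8 and 11.2 TPM in IM3. They were 20.7 and 13 TPM in IM4, and at most 0.91 TPM in IM1, IM2 and IM5. The GC trend given above was below 0 in all libraries of embryonic stem cells, early mesoderm, IM3 and IM4. It was above 0 in all libraries of IM1, IM5 and iSLC, and went both ways in the epiblast-like step and IM2. The source of the globin reads and a link to that trend were not tested. *Hba-x*, the embryonic alpha-like globin, was at 35.7, 40.4 and 33.6 TPM in IM3 and 0.08, 0.24 and 0.05 TPM in iSLC (log2 fold change -8.33 ± 0.33, adjusted p = 2.77e-17). *Tal1*, the factor of early blood, was at 1.75, 1.34 and 1.39 TPM in IM3 and 0.06, 0.07 and 0.10 TPM in iSLC. *Ppbp*, a platelet chemokine, was at 88.6, 78 and 87.6 TPM in IM3 and 0.14, 0.26 and 0 TPM in iSLC (log2 fold change -9.26 ± 0.43, adjusted p = 1.17e-16). Its IM3 level is most of the summed 83.0 to 92.7 TPM of 8 megakaryocyte genes there. Of the 6 that were tested, 1 fell and 2 rose. The rise in *Itga2b* was lost with the GC offset. *Gp1bb*, the other, shares 92.9% of its length with *Sept5* and a predicted gene, and was not called without iSLC replicate 2 (log2 fold change 1.56), in the fit on the 6 libraries alone or under the minimum over all 27, each of which left 1 rise. Of 6 immune cell genes 1 fell, *Csf1r*, the receptor of macrophage growth factor, at 3.76, 3.88 and 3.05 TPM in IM3 and 0.63, 0.76 and 0.87 TPM in iSLC, and without IM3 replicate 1 the count was 2.

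The remaining large falls were of mixed kinds. *Psca*, a surface antigen of epithelia, had 1 read in iSLC and was lower by a ratio of 1043 (95% counting interval 186 to 41263). *Mall*, a membrane trafficking protein, had 2 and a ratio of 412 (113 to 3415). *Il2ra*, a cytokine receptor chain, was at 48.3, 55 and 234 normalized reads in IM3 with 1 read in iSLC, a ratio of 503 (89.4 to 19939). *Tnfsf8*, a cytokine of the TNF family, was at 31.5, 80.3 and 235 with none in iSLC, at least 169-fold lower. IM3 replicate 3 set most of both levels, and without it neither was called (log2 fold changes -6.91 and -8.79). Both were also read in embryonic stem cells (means 0.52 and 0.63 TPM), early mesoderm (0.71 and 0.86 TPM) and IM4 (0.71 and 0.64 TPM). In the epiblast-like step, IM1, IM2 and IM5 their means were at most 0.053 TPM. These are the groups outside iSLC in which *B430305J03Rik*, given above, was read. *Exosc6*, an exosome subunit, was at least 246-fold lower, but it lies wholly within *Aars* on the same strand, so its reads depend on how they were shared out.

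By level, the largest losses in TPM were in genes of protein synthesis and folding besides *Krt8*. *Hspa8*, the constitutive HSP70 chaperone, was at 3269, 3322 and 3426 TPM in IM3 and 1087, 1106 and 1094 TPM in iSLC (log2 fold change -1.78 ± 0.05, adjusted p = 7.33e-22). *Npm1*, the nucleolar protein nucleophosmin, was at 2333, 2286 and 2480 TPM in IM3 and 990.5, 1047 and 1048 TPM in iSLC (log2 fold change -1.28 ± 0.05, adjusted p = 2.63e-17). *Eif4a1*, the helicase that unwinds mRNA leaders, was at 1759, 1679 and 1858 TPM in IM3 and 762, 788 and 768 TPM in iSLC. *Rps7*, a ribosomal protein, was at 1472, 1446 and 1500 TPM in IM3 and 573, 601 and 572 TPM in iSLC. These genes were also abundant in iSLC. *Gm10260*, a ribosomal protein-like copy that overlaps a predicted gene on the other strand over 96.4% of its length, was at 1005, 878 and 831 TPM in IM3 and 47.2, 59.6 and 60.9 TPM in iSLC. Each was below all 24 other libraries in iSLC.

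Endoderm genes fell in 7 of 10 and rose in 0 (median -3.43). *Apoa1*, an apolipoprotein of visceral endoderm and liver, was at 234, 229 and 187 TPM in IM3 and 3.52, 2.59 and 2.91 TPM in iSLC (log2 fold change -6.10 ± 0.15, adjusted p = 2.73e-22). *Apob*, another, fell 71.4-fold. *Ttr* and *Afp*, further secreted products of these tissues, fell 31.6-fold and 13.5-fold. *Hnf4a*, their nuclear receptor, was at 6.14, 9.06 and 5.54 TPM in IM3 and 0.47, 0.17 and 0.67 TPM in iSLC. Of 19 pluripotency and early mesoderm genes, 5 fell and 1 rose (median -1.33). *Lin28a*, an RNA-binding protein that blocks let-7 maturation in early cells, was at 53.4, 51.1 and 52.5 TPM in IM3 and 2.53, 2.39 and 2.49 TPM in iSLC (log2 fold change -4.39 ± 0.08, adjusted p = 2.70e-25). Its relative *Lin28b* was at 15.9, 14 and 16.6 TPM in IM3 and 0.49, 0.57 and 0.54 TPM in iSLC. *Cdx2*, of the posterior embryo and trophoblast, was at 5.61, 4.57 and 4.57 TPM in IM3 and 0.09, 0.15 and 0.13 TPM in iSLC. *Nanog*, a core pluripotency factor, was at 1.38, 1.66 and 1.13 TPM in IM3 and 1.57, 1.71 and 2.02 TPM in iSLC. *Sox2*, another, was at 1.28, 1.66 and 1.25 TPM in IM3 and 0.94, 1.15 and 1.11 TPM in iSLC. Neither was called. *Tcf15*, a factor of paraxial mesoderm and somites, rose to 4.75, 5.44 and 3.98 TPM from 1.32, 1.19 and 1.34 TPM, and without iSLC replicate 3 the list held 2 rises.

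Signalling genes were taken by pathway, since the media differed in their ligands. RA was in the IM3 medium. Of 19 retinoid genes, 5 rose and 5 fell (median 0.17). *Cyp26a1*, which degrades RA and is induced by it, was at 23.2, 22.3 and 22.1 TPM in IM3 and 2, 1.73 and 2.14 TPM in iSLC (log2 fold change -3.50 ± 0.19, adjusted p = 2.81e-15). *Crabp1* and *Crabp2*, the cellular binding proteins of RA, fell 6.54-fold and 8.16-fold. *Cyp26b1*, given above, was the other enzyme of RA breakdown that fell. *Rbp4*, the plasma carrier of retinol, was at 277, 244 and 231 TPM in IM3 and 7.75, 7.81 and 6.77 TPM in iSLC (log2 fold change -5.01 ± 0.12, adjusted p = 7.54e-23). The enzymes that make RA from retinal rose, *Aldh1a1* as above and *Aldh1a3*, at 1.84, 1.14 and 1.06 TPM in IM3 and 18.7, 18.6 and 19.7 TPM in iSLC. *Dhrs3*, a retinal reductase, was at 32.4, 39.8 and 34.5 TPM in IM3 and 157, 159 and 166 TPM in iSLC. *Stra6*, the receptor for retinol uptake, rose 4.44-fold. *Rarb*, the RA receptor that is itself RA-responsive, was at 44.2, 47 and 47.9 TPM in IM3 and 26.6, 27 and 28.2 TPM in iSLC, under the fold minimum.

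BMP was also in the IM3 medium, and 11 of 23 BMP genes fell while 2 rose (median -0.88). The falls included targets of the pathway and ligands. *Id2*, an inhibitor of helix-loop-helix factors, was at 212, 219 and 231 TPM in IM3 and 48.5, 47.4 and 43.4 TPM in iSLC (log2 fold change -2.22 ± 0.07, adjusted p = 1.39e-20). *Msx1* and *Msx2*, homeobox targets, fell 45.2-fold and 14.1-fold. *Smad6*, the feedback inhibitor, was at 70.7, 72.2 and 58.6 TPM in IM3 and 29.1, 31 and 27.2 TPM in iSLC. *Bmp7*, a ligand, was at 20.8, 22.4 and 18.9 TPM in IM3 and 2.92, 2.84 and 2.46 TPM in iSLC. *Id1* and *Id3*, which are also direct targets, were not called. *Id1* was at 162, 181 and 159 TPM in IM3 and 158, 135 and 132 TPM in iSLC (adjusted p = 0.133). *Id3* was at 177, 226 and 170.3 TPM in IM3 and 289, 282 and 286 TPM in iSLC, 0.59 on the log2 scale. *Bmp4*, a ligand, was at 38.3, 36.5 and 39.1 TPM in IM3 and 63.4, 63.1 and 60 TPM in iSLC, not called. Both rises were in antagonists of the ligands, *Grem1* by 3.65-fold and *Chrd* by 2.79-fold, while *Nog*, an antagonist too, fell 4.32-fold.

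Activin and TGF-beta genes rose in 11 of 26 and fell in 2 (median 0.47). Activin A was in the Sertoli medium. Besides *Inha* and *Inhbb*, the third subunit *Inhba* rose to 8.93, 9.7 and 7.75 TPM from 1.29, 1.44 and 2.05 TPM (log2 fold change 2.51 ± 0.24, adjusted p = 5.15e-10). *Tgfb3* was at 20.8, 24.3 and 20 TPM in IM3 and 94.1, 98.2 and 97.7 TPM in iSLC (log2 fold change 2.17 ± 0.07, adjusted p = 1.11e-19). *Tgfbr2*, its type II receptor, was at 13.4, 13.5 and 12.3 TPM in IM3 and 41.8, 41.8 and 40.9 TPM in iSLC. *Pmepa1*, a target and feedback inhibitor, was at 12.3, 13.2 and 10.5 TPM in IM3 and 54.7, 49.2 and 52.7 TPM in iSLC. The groups overlapped in none of these. *Ccn2*, a matricellular target, rose 3.21-fold, and *Lefty1*, an antagonist of Nodal, 17.4-fold. Both falls were in activin type II receptors, *Acvr2a* by 2.47-fold and *Acvr2b* by 2.56-fold. *Smad7*, also known as a target, had a log2 fold change of -0.34.

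FGF, EGF and ERK genes moved both ways, with 8 of 30 higher and 12 lower (median 0.17). FGF was in both media and EGF in the Sertoli medium. Sprouty genes, feedback inhibitors induced by the pathway, rose. *Spry2* was at 42, 39.8 and 37 TPM in IM3 and 152, 144 and 146 TPM in iSLC (log2 fold change 1.91 ± 0.07, adjusted p = 5.23e-19). *Spry4* rose 3.4-fold and *Spry1* 2.51-fold, and the factors *Etv1* and *Etv4*, also targets, 4.6-fold and 2.26-fold. Other targets fell, *Phlda1* by 4.26-fold, *Dusp4* by 3.23-fold and *Fosl1* by 4.16-fold. *Dusp6*, a phosphatase of ERK, was at 81.1, 77 and 82.5 TPM in IM3 and 94.2, 84.1 and 82.9 TPM in iSLC (adjusted p = 0.134). Of the receptors, *Egfr* rose to 52.3, 52.1 and 54.4 TPM from 23.8, 24 and 23.1 TPM and *Erbb4* rose as above. *Erbb3* fell 5.49-fold, *Fgfr2* 3.69-fold, *Fgfr3* 11.5-fold and *Fgfr4* 5.07-fold. *Fgfr1*, the most abundant FGF receptor by TPM in both groups, was at 103, 107 and 100.1 TPM in IM3 and 179.6, 168 and 170.3 TPM in iSLC, under the fold minimum. *Fgf10*, a ligand of mesenchyme, fell 5.46-fold. *Fgf2*, another ligand, rose to 11.6, 12.4 and 12.3 TPM from 2.02, 1.22 and 2.23 TPM.

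Wnt genes fell in 11 of 36 and rose in 4 (median -0.69). *Wnt2*, a ligand of the heart and lung mesoderm, was at 47.4, 47.9 and 48.5 TPM in IM3 and 0.37, 0.24 and 0.24 TPM in iSLC (log2 fold change -7.37 ± 0.12, adjusted p = 2.52e-25). *Lef1*, a nuclear partner of beta-catenin and also its target, was at 25.1, 18.8 and 22.7 TPM in IM3 and 0.65, 0.84 and 0.87 TPM in iSLC, and *Tcf7*, another, fell 6.94-fold. *Axin2*, the common readout, was at 12.6, 13.1 and 13.8 TPM in IM3 and 4.53, 4.18 and 4.42 TPM in iSLC (log2 fold change -1.67 ± 0.07, adjusted p = 5.58e-18). Secreted antagonists divided. *Dkk1* and *Sfrp5* fell 4.67-fold and 13.9-fold. *Sfrp2* was at 10.1, 11.2 and 9.13 TPM in IM3 and 133, 126 and 116 TPM in iSLC (log2 fold change 3.56 ± 0.08, adjusted p = 4.57e-23), with 16.1% of its length overlapped by a predicted gene on the other strand. *Nkd1*, a feedback inhibitor, rose 2.58-fold, and *Wnt5b*, a ligand, 2.72-fold.

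Of 16 Notch genes, 6 rose and 3 fell (median 0.67). *Heyl* was at 0.40, 0.46 and 0.31 TPM in IM3 and 7.35, 7.76 and 7.38 TPM in iSLC (log2 fold change 4.19 ± 0.20, adjusted p = 2.14e-16). Its relatives *Hey1* and *Hey2* fell 20.6-fold and 6.41-fold. All 3 are targets of the pathway. *Lfng*, which modifies the receptors, rose 8.13-fold, and *Notch3*, a receptor, 2.81-fold. Of 13 Hedgehog genes, 2 rose and 3 fell (median 0.30). Besides *Dhh*, the coreceptor *Boc* rose, at 7.07, 6.13 and 5.49 TPM in IM3 and 72.5, 72.9 and 71.5 TPM in iSLC (log2 fold change 3.54 ± 0.09, adjusted p = 8.56e-22). *Gli1* and *Hhip*, targets of the pathway, fell 3.62-fold and 15.7-fold. *Ptch1*, also a target, was at 11.6, 10.6 and 10.4 TPM in IM3 and 7.16, 6.5 and 6.02 TPM in iSLC, under the fold minimum. Under the minimum of 100 reads over all 27 libraries, 1 rise was left in the Hedgehog list, and 1 in the BMP list.

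Of 15 IGF genes, 3 rose and 4 fell (median 0.40). *Igfbp7*, a secreted IGF-binding protein, was at 2.27, 2.73 and 1.74 TPM in IM3 and 618, 731 and 601 TPM in iSLC (log2 fold change 8.21 ± 0.17, adjusted p = 1.45e-23), a 297-fold rise. *Grb10*, an imprinted inhibitor of insulin and IGF receptors, was at 383, 379 and 381 TPM in IM3 and 13.8, 15.3 and 16.1 TPM in iSLC (log2 fold change -4.70 ± 0.06, adjusted p = 1.27e-27). *Igf2*, the ligand, was at 1774, 1906 and 1692 TPM in IM3 and 2635, 2592 and 2640 TPM in iSLC, under the fold minimum. Among 13 PDGF and renin-angiotensin genes, 6 rose and 2 fell (median 0.82). *Agtr1a*, an angiotensin II receptor, was at 0.17, 0.15 and 0.34 TPM in IM3 and 15.7, 16.1 and 19.2 TPM in iSLC (log2 fold change 6.47 ± 0.30, adjusted p = 1.31e-16). *Agt*, the precursor of angiotensin, was at 0.11, 0.03 and 0 TPM in IM3 and 4.39, 3.75 and 3.45 TPM in iSLC. *Mas1*, the receptor of a shorter angiotensin, was at 0.42, 0.21 and 0.29 TPM in IM3 and 3.71, 3.34 and 3.19 TPM in iSLC. *Enpep* and *Ace*, peptidases of the system, rose 6-fold and 6.46-fold. *Ren1*, renin itself, was at 1.1, 1.1 and 1.19 TPM in IM3 and 0.21, 0.23 and 0.30 TPM in iSLC, not called. Under the minimum over all 27 libraries 3 of the 6 rises were left. Prostaglandin genes rose in 4 of 13 and fell in 1 (median 0.49). *Ptgs1*, the constitutive cyclooxygenase, was at 5.09, 5.36 and 5.09 TPM in IM3 and 32.7, 32.2 and 33.3 TPM in iSLC. *Ptgs2*, the inducible one, was at 12.4, 10.4 and 12.2 TPM in IM3 and 1.18, 1.25 and 1.17 TPM in iSLC. The groups overlapped in neither. Without IM3 replicate 3 the list held 2 falls. *Ptgds*, the synthase of prostaglandin D2 in Sertoli cells, stayed at 0.09, 0.70 and 0.40 TPM in IM3 and 0.56, 0.43 and 0.49 TPM in iSLC (adjusted p = 0.267).

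Genes of cholesterol synthesis fell. Cells make cholesterol from acetyl-CoA through a chain of enzymes whose genes are switched together by SREBP2, which is active when membrane sterol is low. Of 23 genes of synthesis and uptake, 18 fell and 0 rose (median -1.52), and their summed TPM was 4698 to 4832 in IM3 and 1689 to 1728 in iSLC. *Hmgcs1*, an early step of the chain, was at 547, 527 and 545 TPM in IM3 and 198, 209.5 and 205 TPM in iSLC (log2 fold change -1.39 ± 0.04, adjusted p = 3.06e-20). *Sqle*, the first oxygen-using step, was at 268, 268 and 259 TPM in IM3 and 87.5, 90.2 and 88.2 TPM in iSLC (log2 fold change -1.56 ± 0.04, adjusted p = 9.86e-23). The steps *Idi1*, *Fdps*, *Lss*, *Cyp51* and *Sc5d* fell by 3.21-fold, 2.87-fold, 3.44-fold, 3.73-fold and 4.26-fold. The other 5, which were not called, *Srebf2*, *Tm7sf2*, *Insig1*, *Hsd17b7* and *Mvk*, had log2 fold changes of -0.41 to -0.96. IM3 and iSLC libraries did not overlap in any of the 18, as in 1855 of all 1858 genes called lower.

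Genes of cholesterol export and storage rose in 2 of 10 and fell in 1 (median 0.44). *Abca1*, the pump that loads HDL and a target of the sterol sensors LXR, was at 2.9, 3.27 and 2.73 TPM in IM3 and 28.6, 26.5 and 28.9 TPM in iSLC (log2 fold change 3.31 ± 0.10, adjusted p = 8.69e-21), and *Abcg1* rose 3.27-fold. *Apoe*, an apolipoprotein of lipid export, was at 706, 758 and 605 TPM in IM3 and 202, 172 and 177 TPM in iSLC (log2 fold change -1.68 ± 0.12, adjusted p = 1.26e-12).

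**Figure D4:**
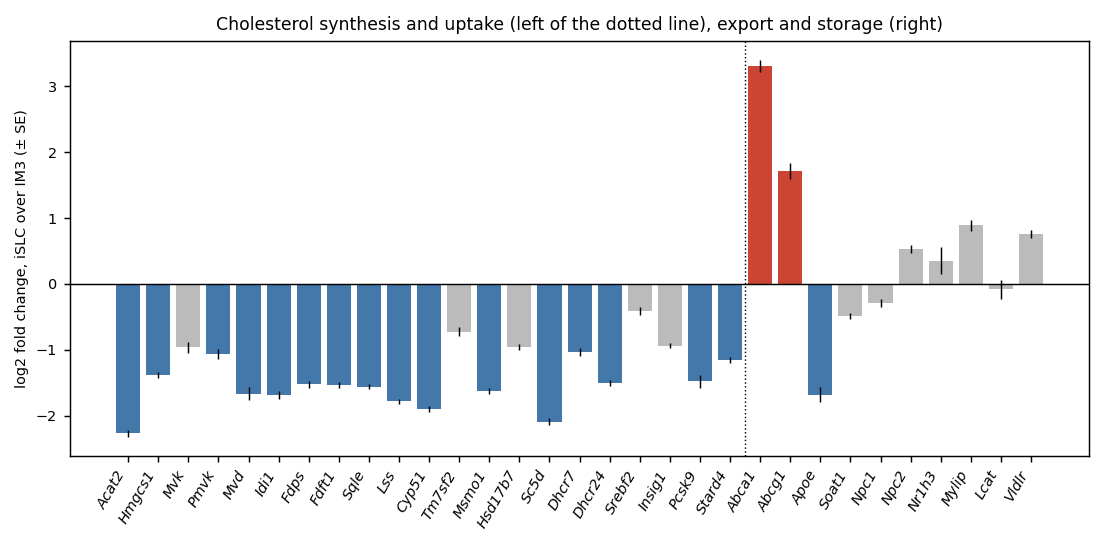
Log2 fold change (iSLC over IM3, error bars ± SE, 3 libraries against 3) of 21 of the 23 genes of cholesterol synthesis and uptake and 10 of export and storage; red bars were called higher, blue bars called lower, and grey bars were not called. All 21 bars on the left point down, from -0.41 (*Srebf2*) to -2.26 (*Acat2*), and *Abca1* on the right reaches 3.31.

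Of 23 fatty acid genes, 7 rose and 5 fell (median -0.22). Genes of uptake and oxidation were among the rises. *Cd36*, a fatty acid transporter, rose to 31.3, 29.2 and 35.2 TPM from 1.51, 0.57 and 1.63 TPM (log2 fold change 5.03 ± 0.23, adjusted p = 1.39e-16). *Cpt1a*, the gate to the mitochondrion, was at 7.04, 7.78 and 7.76 TPM in IM3 and 61.6, 61.2 and 61 TPM in iSLC (log2 fold change 3.04 ± 0.06, adjusted p = 7.43e-24). *Acadvl*, of beta oxidation, rose 3.53-fold and *Lpl*, a lipase, 4.31-fold. Genes of desaturation and elongation were among the falls. *Scd1*, a desaturase, was at 261, 261 and 260.5 TPM in IM3 and 64, 67.1 and 64.8 TPM in iSLC (log2 fold change -1.99 ± 0.04, adjusted p = 3.85e-23). *Scd2*, another, fell 2.05-fold and *Elovl6*, an elongase, 2.89-fold. *Fasn*, the synthase, was at 336, 397 and 321 TPM in IM3 and 184, 173 and 181 TPM in iSLC, under the fold minimum.

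Glycolysis and hypoxia genes rose in 8 of 27 and fell in 3 (median 0.54). *Adm*, the vasodilator peptide adrenomedullin, was at 1.83, 1.58 and 1.69 TPM in IM3 and 55.6, 50.4 and 56.9 TPM in iSLC (log2 fold change 4.96 ± 0.20, adjusted p = 5.95e-18). *Egln3*, an oxygen-sensing hydroxylase, was at 1.81, 2.38 and 2.41 TPM in IM3 and 27.7, 27 and 28.4 TPM in iSLC. *Vegfa*, the vessel growth factor, was at 44, 41 and 35.9 TPM in IM3 and 198, 193 and 192 TPM in iSLC. *Slc2a3*, a glucose transporter, went the other way, at 169.9, 138 and 149.9 TPM in IM3 and 20.3, 22.2 and 20.5 TPM in iSLC (log2 fold change -2.94 ± 0.06, adjusted p = 1.15e-23). Of the hexokinases, *Hk2* fell 3.38-fold and *Hk1* rose 2.23-fold. The abundant glycolytic enzymes *Gapdh*, *Aldoa* and *Pkm* had log2 fold changes of -0.67, 0.25 and -0.05, none called.

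Oxidant response genes fell in 8 of 19 and rose in 3 (median -0.92). Targets of NRF2, the factor of the electrophile response, were among the falls. *Nqo1* was at 36.3, 32.5 and 33.1 TPM in IM3 and 4.04, 4.5 and 5.18 TPM in iSLC (log2 fold change -2.87 ± 0.10, adjusted p = 1.28e-19). *Srxn1* and *Txnrd1*, which reduce oxidised thiols, fell 6.39-fold and 4.07-fold, and *Gclc*, of glutathione synthesis, 3.96-fold. *Sod3*, the secreted superoxide dismutase, rose to 6.39, 5.47 and 4.83 TPM from 0.25, 0.29 and 0.28 TPM, and *Gstm1* 3.32-fold. Of 24 amino acid and ER stress genes, 3 rose and 2 fell (median 0.13), and all 3 rises were lost with the GC offset. Without iSLC replicate 2 or iSLC replicate 3, or with an offset for gene length, the falls numbered 1. *Hspa5*, the ER chaperone that reads out the unfolded protein response, was at 567, 620.1 and 618 TPM in IM3 and 613, 584 and 565 TPM in iSLC, not called. Of 13 mitochondrially encoded genes 2 rose and 0 fell (median 0.55). *mt-Nd4l* was at 524, 451 and 641 TPM in IM3 and 1122, 1160 and 1214 TPM in iSLC. *mt-Atp8* was at 12896, 13496 and 13803 TPM in IM3 and 19412, 20254 and 19764 TPM in iSLC, overlaps *mt-Atp6* over 21.1% of its length, and lost its call with an offset for gene length. That offset left 1 rise in the list, and the GC offset gave 4.

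Cell division genes fell in 11 of 27 and rose in 0 (median -0.86). Genes of DNA replication were among them. Of the 6 subunits of the MCM helicase, *Mcm2*, *Mcm3*, *Mcm4*, *Mcm5* and *Mcm7* fell 2.74-fold, 2.69-fold, 2.08-fold, 3.37-fold and 2.44-fold. *Mcm6* had a log2 fold change of -0.93, just under the fold minimum. *Pcna*, the clamp of the polymerase, was at 406, 406 and 428 TPM in IM3 and 152, 162 and 150.1 TPM in iSLC (log2 fold change -1.39 ± 0.05, adjusted p = 8.79e-20). *Rrm2*, which makes deoxynucleotides, was at 248, 238 and 254 TPM in IM3 and 67.9, 68.6 and 64 TPM in iSLC (log2 fold change -1.90 ± 0.05, adjusted p = 3.46e-22). *Mki67*, a marker of cycling cells, was at 72.5, 69.2 and 74.3 TPM in IM3 and 76.7, 79.8 and 76.3 TPM in iSLC (adjusted p = 0.213). *Ccnb2*, a mitotic cyclin, was at 55.1, 50.9 and 55.4 TPM in IM3 and 77.8, 82.4 and 82.9 TPM in iSLC. Neither was called. Of 13 G1 cyclins and CDK inhibitors 5 rose and 0 fell (median 0.58). *Cdkn2a*, which encodes INK4A and ARF, was at 9.85, 14.6 and 11.1 TPM in IM3 and 86.3, 82 and 75.6 TPM in iSLC (log2 fold change 2.82 ± 0.14, adjusted p = 4.99e-16). *Cdkn2b* and *Cdkn2c*, further CDK inhibitors, rose 3.6-fold and 8.16-fold. *Cdkn1c*, imprinted, rose 2.36-fold and lost its call with the GC offset. Of 18 p53 targets 3 rose and 2 fell (median 0.36). *Cdkn1a*, the best known of them, was at 213, 187 and 195 TPM in IM3 and 314, 288 and 291 TPM in iSLC, under the fold minimum. *Gdf15*, a stress cytokine, rose 7.95-fold, and *Perp*, also a desmosome component, fell 4.3-fold.

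Interferon response and MHC class I genes rose in 16 of 29 and fell in 2 (median 1.45). *Isg15*, a ubiquitin-like modifier induced by interferon, was at 1.73, 1.28 and 1.59 TPM in IM3 and 18.5, 16.2 and 11.2 TPM in iSLC (log2 fold change 3.36 ± 0.24, adjusted p = 1.66e-12). Among the 3 iSLC libraries it was highest in replicate 1 and lowest in replicate 3, and all 3 lay above all IM3 libraries. *Bst2*, tetherin, rose 7.89-fold, *Oasl2* 5.14-fold and *Ddx58*, the RNA sensor RIG-I, 5.08-fold. *B2m*, the light chain of class I molecules, was at 89, 83.1 and 88.2 TPM in IM3 and 389, 415 and 386 TPM in iSLC (log2 fold change 2.25 ± 0.08, adjusted p = 1.54e-19), and *Tap1*, of peptide transport, rose 2.06-fold. *H2-K1*, a class I heavy chain with near-identical relatives, was at 49.1, 54 and 46.9 TPM in IM3 and 20.2, 20.4 and 20.4 TPM in iSLC and fell. *Cxcl10*, a chemokine and the other fall, was at 4.19, 2.36 and 4.06 TPM in IM3 and 0.42, 0.54 and 0.21 TPM in iSLC. It was not called without IM3 replicate 1 or without IM3 replicate 3 (log2 fold changes -2.95 and -2.98), which left 1 fall in the list. *Cd3e* and *Ptprc*, markers of leukocytes, were at or below 0.11 TPM in iSLC.

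Immediate early genes respond within minutes to serum, growth factors or handling. A list of these and of heat shock genes known to respond to cell dissociation rose in 13 of 24 and fell in 5 (median 1.19), with *Hspa8*, given above, among the falls. *Egr1* was at 6.79, 5.91 and 5.84 TPM in IM3 and 151, 138 and 124 TPM in iSLC (log2 fold change 4.53 ± 0.20, adjusted p = 4.55e-17). *Fos*, *Junb* and *Ier2* rose 3.79-fold, 3.12-fold and 2.18-fold. Other immediate early genes fell, *Dusp1* by 2.53-fold and *Myc* by 2.42-fold. *Jun* was at 65.3, 70.5 and 58.5 TPM in IM3 and 22.7, 20.7 and 20.3 TPM in iSLC. *Atf3* was at 11.6, 9.64 and 10.9 TPM in IM3 and 1.87, 1.67 and 1.71 TPM in iSLC (log2 fold change -2.59 ± 0.10, adjusted p = 1.37e-18). The iSLC were sorted and the IM3 cells were not, and handling and the other differences between the groups cannot be told apart here.

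Imprinted genes rose in 7 of 20 and fell in 5 (median 0.37). *H19*, a noncoding RNA, was at 4603, 4647 and 4811 TPM in IM3 and 11110, 11259 and 11893 TPM in iSLC (log2 fold change 1.34 ± 0.07, adjusted p = 8.78e-16). *Phlda2*, known as a brake on placental growth, was at 79.9, 88.2 and 71.1 TPM in IM3 and 1.12, 1.68 and 1.12 TPM in iSLC (log2 fold change -5.64 ± 0.24, adjusted p = 1.84e-17). *Zdbf2* and *Igf2r*, the latter a receptor that clears IGF2, fell 5.38-fold and 2.15-fold. *Peg3* and *Meg3* had log2 fold changes of 0.97 and -0.03, neither called. Of 39 Hox genes, the homeobox factors that set position along the body, 11 rose and 3 fell (median 0.53), with 5 falls under the GC offset. *Hoxa5* was at 12, 11.3 and 10.7 TPM in IM3 and 49.9, 59.1 and 52.1 TPM in iSLC (log2 fold change 2.26 ± 0.15, adjusted p = 2.12e-13). *Hoxa6*, *Hoxb3* and *Hoxc6* rose 15.9-fold, 3.87-fold and 3.38-fold. *Hoxd9* fell 3.15-fold.

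Of 15 kidney and nephric genes 2 rose and 3 fell (median 0.01), with 1 rise under the GC offset. *Pax2* and *Pax8*, the defining factors of the nephric line, were at or near 0 in both groups (at most 0.13 TPM). *Eya1*, a cofactor of homeobox factors, was at 1.24, 0.60 and 0.68 TPM in IM3 and 3.83, 4.08 and 3.87 TPM in iSLC. *Sall1*, a kidney factor, fell 2.73-fold. Of 15 germline and meiosis genes 2 rose and 3 fell (median -0.47). *Sycp1*, a synaptonemal complex protein, was at 0.16, 0.06 and 0.01 TPM in IM3 and 2.22, 2.35 and 2.39 TPM in iSLC (log2 fold change 6.18 ± 0.28, adjusted p = 6.04e-17). *Ddx4*, the germ cell helicase, was at 0.27, 0.20 and 0.08 TPM in IM3 and 0.65, 0.63 and 0.78 TPM in iSLC with too few reads to be called. *Dazl* and *Prdm14* were at or below 0.18 TPM. *Kit*, the receptor of the Sertoli cell's KIT ligand, was at 18.2, 15.8 and 17 TPM in IM3 and 6.23, 5.93 and 5.12 TPM in iSLC (log2 fold change -1.52 ± 0.07, adjusted p = 1.85e-16). *Kitl*, the ligand, was at 19.7, 17.5 and 19.8 TPM in IM3 and 25, 23.5 and 24.7 TPM in iSLC. Of 11 neural genes 2 rose and 0 fell (median 1.24). *Map2*, a microtubule protein of neurons, was at 1.18, 1.28 and 1.12 TPM in IM3 and 51.4, 45.3 and 44.1 TPM in iSLC (log2 fold change 4.94 ± 0.10, adjusted p = 8.95e-24). *Tfap2a* was at 0.33, 0.15 and 0.25 TPM in IM3 and 1.98, 1.9 and 1.9 TPM in iSLC. *Elavl3* and *Neurog1*, which define neurons, were at 0.13 TPM or less in all 6 libraries. *Tfap2a* was not called under the minimum over all 27 libraries, which left 1 rise. Without IM3 replicate 3 or with the GC offset, 1 neural gene was called lower.

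Set against all 9 groups, the genes fell into a few patterns. The stages before IM3 are embryonic stem cells (ESC), the epiblast-like step (titled EpiSC) and early mesoderm (M), and IM1, IM2, IM4 and IM5 are the other intermediate mesoderm media. *Cyp11a1*, *Col6a6* and *Aldh1a1* were highest in iSLC, with group means of 36.7, 23.8 and 102 TPM against at most 3.79, 0.24 and 2.12 TPM in any other group. *Krt8* was lowest in iSLC, at 17.9 ± 1.73 TPM (SD, n = 3), against 246 to 1692 TPM in the group means of the others. *Lin28a* was at 2.47 ± 0.07 TPM against 38.8 to 271 TPM. *Hand1* and *Kdr*, which rise with mesoderm, had means of 1.95 and 0.72 TPM. The mean for *Hand1* was 18.1 TPM in ESC and 168 in M, and that for *Kdr* 0.22 and 58.4. *Sqle*, of cholesterol synthesis, was at 88.7 ± 1.4 TPM in iSLC and at 74.8 to 267 TPM in the other groups. The mean of *Dmrt1* was 21.6 TPM in ESC and 8.89 TPM in EpiSC, against 213 TPM in iSLC. Group means of *Nr5a1* were 0.03 to 0.13 TPM outside iSLC.

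**Figure D5:**
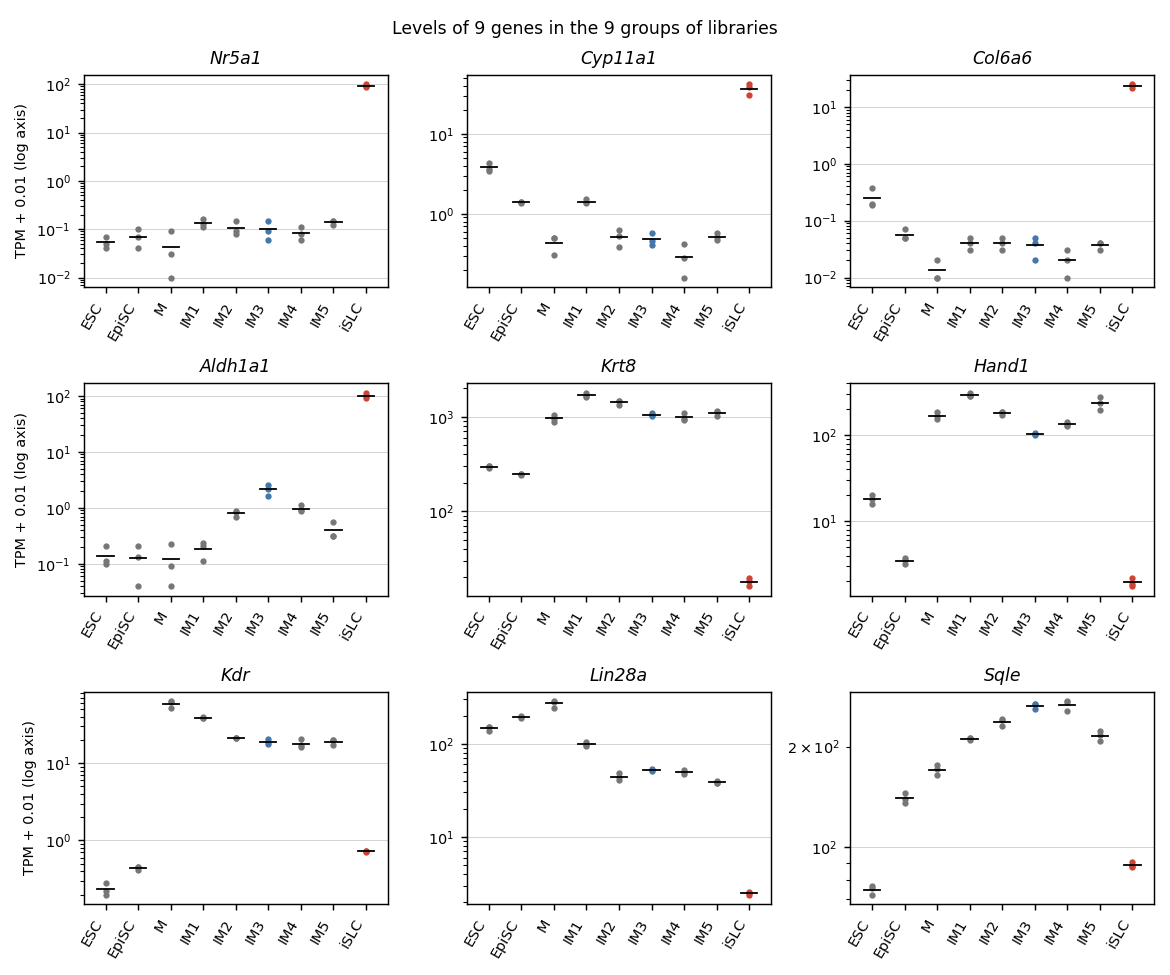
TPM (plus 0.01, log axis) of 9 genes in the 27 libraries by group, with group means as black lines, IM3 in blue and iSLC in red. *Nr5a1*, *Cyp11a1*, *Col6a6* and *Aldh1a1* are highest in iSLC, *Krt8* and *Lin28a* lowest there, and *Hand1* and *Kdr* high in the intermediate mesoderm groups and low in iSLC.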

How the data were processed

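RNA from 27 libraries was sequenced after a TruSeq V2 preparation, which does not mark strand. The authors trimmed reads with cutadapt 1.9.1, aligned them with STAR 2.5.2a to GRCm38 and counted genes with RSEM 1.3.0, per the labels and the study's methods. The deposited files hold, for each library and gene, the expected count, the TPM and the FPKM as the authors' RSEM run gave them. Expected counts were rounded to whole numbers and tested; TPM served as levels per length, and FPKM were only compared with TPM, from which their log2 ratios between the groups differed by -0.089 to -0.072. Symbols and positions came from the annotation of the same build, found for 48435 of 48795 genes.

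Genes passing edgeR's expression filter (20839) were fitted over all 27 libraries and 9 groups with TMM normalization and the quasi-likelihood test in edgeR 4.0.16 under R 4.3.3, and iSLC was contrasted with IM3. Standard errors are those of the log2 fold change. Floors take 3 counts over a group, and ratios on 1 to 3 counts have 95% exact intervals; both cover counting error only. Replicate libraries of a group differed by more than sampling noise (chi-square 3.63 to 17.9 per degree of freedom), so none was counted as a repeat of another.

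The members and gene lists were chosen with earlier results of these data known. Named genes were the markers, the 12 largest rises and falls by log2 fold change and the 6 largest each way by TPM among called protein-coding genes without overlap, up to 4 called members of each list in each direction with its first member, and further members where roles are described. The alternatives were DESeq2 1.42.0, its size factors, a GC offset, a length offset, no expression filter, other limits on reads, fold and p, a fit on 6 libraries, a replicate block, and leaving out each library. Promoter windows were read from a RefSeq table of GRCm38.p6 that covers part of the genes. A few genes of the lists were counted there but are not reported here by name.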

Additional observations from a re-analysis of the deposited data

How the results depend on the processing

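The counts of 2574 genes called higher and 1858 lower kept to within 1.5 times under all alternatives except those that dropped a limit of the call. With no fold minimum 5531 genes were called higher and 5243 lower, and with no minimum of normalized reads 2984 were called lower (3717 higher). Leaving out each library in turn gave 2522 to 2635 higher and 1847 to 1885 lower. Same-numbered libraries of IM3 and iSLC showed no shared deviation (correlations 0.006, -0.013 and 0.067). The labels do not say what the numbers mark, and so few correlations cannot exclude a pairing. With the replicate block 2577 genes were called higher and 1855 lower. DESeq2's Wald test called 2598 and 1818, and a fit on the 6 libraries alone 2477 and 1890. With the GC offset 89.2% of the genes called higher and 90.9% of those called lower kept their call. Asking for a mean of 100 normalized reads over all 27 libraries left 2072 and 1770, and ended the calls of 33 named genes, among them *Chodl*, *Cst8*, *5031410I06Rik*, *Gm21541*, *Gm21680*, *Defb19*, *Abca8a*, *Kcne4*, *Cldn11*, *Esr2*, *Cyp11b1*, *Mc2r*, *Insl3*, *Gp1bb*, *Tfap2a*, *Grem1*, *Dhh*, *Agt*, *Mas1*, *Hoxa6*, *Gdf15*, *Isg15* and *Sod3* of the rises and *Hba-a2*, *Tnfsf8*, *Il2ra* and *Lhx9* of the falls. The 33 genes above are from 315 followed under each alternative, which leave out the further members named for their roles. Of the 315, none changed direction under an alternative where it was called there or in the main fit. Genes called in neither were not checked for direction. *Pax2* had no value in the fit on the 6 libraries alone. Reads without molecular identifiers are not independent molecules, so counting intervals are too narrow to the extent that copies were counted.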
